A study of Mus musculus and Homo sapiens with 23 samples.

Results

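The lysosome and V-ATPase genes are described here in BV2 cells, an immortalised mouse microglial line. The set holds 46 genes chosen by name: 4 transcription factors of the MiT/TFE family, 11 proteases (10 cathepsins and legumain), the protease inhibitor Cst3, 7 glycosidases, 4 lipid-handling or activator proteins, 5 membrane proteins and 14 subunits or accessory proteins of the proton pump. All 46 were found among the 21597 genes of the deposited tables, and all 46 reached an FPKM of at least 1 in at least 1 library, as did 10035 genes in all. FPKM, a fragment count scaled by transcript length and library size, is a level per length, so levels of different genes can be set side by side. Of the 23 samples in the series, which follows the histone mark H2BK20ac across cell types and through microglial stimulation, 2 carry RNA data. One library is of unstimulated BV2 cells and 1 is of BV2 cells given lipopolysaccharide (LPS), a Gram-negative bacterial cell wall component, for 3 h. No genetic change separates these 2 groups in the labels, and the sources used here do not give a vehicle for the unstimulated cells or the BV2 culture medium.

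Lysosomes are acidic organelles in which hydrolases break down proteins, sugars and lipids taken up by endocytosis or delivered by autophagy. The V-ATPase keeps them acidic: its cytosolic V1 sector burns ATP and turns a ring in the membrane-embedded V0 sector, which carries protons into the lumen. Factors of the MiT/TFE family bind E-box letters near many lysosomal genes and can raise them together. In microglia, the macrophages of the brain, this compartment digests dead cells, myelin and microbes, and cathepsins also cut antigens there.

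There was 1 library per condition, so no difference below has a replicate check and no p-value is given. The 95% intervals after FPKM values are those the authors deposited for a single library, and intervals of ratios combine both. Where a gene had more than 1 transcript row, as 9 members did, its interval combines the deposited half-widths as if the rows were independent. The intervals cover counting and the assignment of fragments to transcripts, not the spread between cultures. The tables listed 17920 of 28246 transcript rows above 0 in the unstimulated library and 17592 in the LPS library. Of 12 myeloid markers, 11 were matched by name and all 11 reached 1 FPKM (summed FPKM of 10848 unstimulated and 9663 after LPS), with Aif1 the lowest (3.19 and 3.88) and the highest being Lyz2 before LPS (4279.7) and Tyrobp after it (3064). Of 25 markers of neurons, astrocytes, oligodendrocytes, endothelium with fibroblasts, and lymphocytes, 0 reached 1 FPKM, and the highest single value was 0.457. In bulk RNA, fewer cells of a type and less RNA per cell cannot be told apart.

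Most lysosome and V-ATPase genes were abundant, and on the deposited FPKM most differed by less than 2-fold between the libraries. A gene was called higher or lower where log2(FPKM + 1) differed by at least 1 between the libraries, a size rule that understates changes of low genes because of the pseudocount. By this rule 1 member was higher, the protease gene Ctsc, and 2 were lower, the transcription factor gene Tfeb and the proton pump gene Atp6v0d2. Among all 10035 counted genes 8.55% were higher and 12.4% were lower, 21% in either direction, against 6.52% of the members. The members' median change was 0.11, beside -0.24 for all counted genes. The sign of the members' median depends on scaling, as it was -0.14 after rescaling to TPM, 0.40 after median scaling and -0.10 after quantile normalisation. Just inside the rule stood Ctsc with a change of 1.12, and just outside it stood Atp6v1a at -0.997 (2.03-fold lower without the pseudocount) and Npc2 at 0.95.

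**Figure D1:**
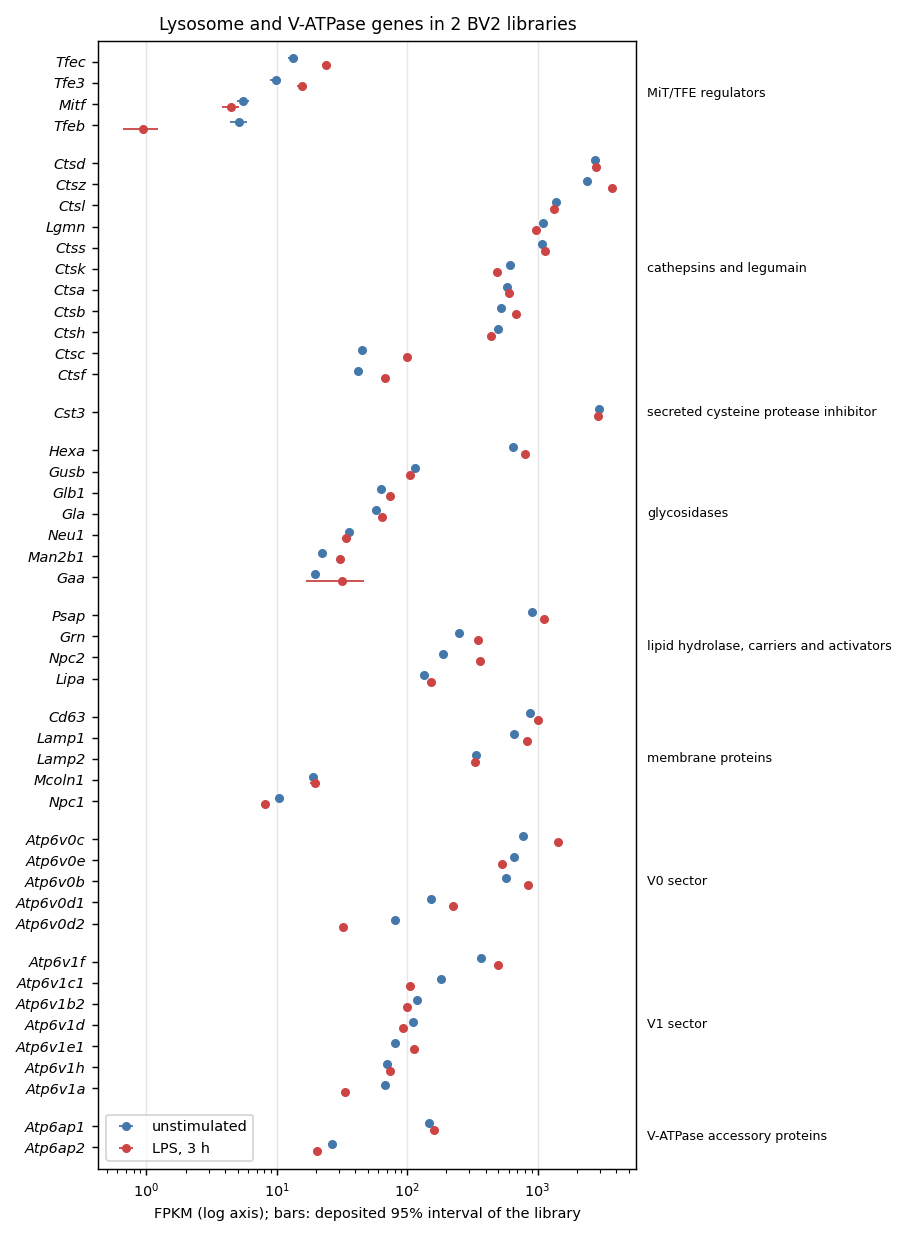
FPKM of each of the 46 genes (log axis) before and after LPS, grouped by role. Bars are the 95% interval of each library, combined over rows where a gene had more than 1 transcript row. The pairs of points mostly lie side by side, and the widest gap is that of Tfeb, at 5.15 and 0.943 FPKM.

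Below the size rule, members stood on both sides. With 1.5-fold on the same scale as the limit, 8 members were higher (Tfe3, Tfec, Ctsc, Ctsf, Ctsz, Npc2, Atp6v0c and, with overlapping intervals, Gaa) and 4 were lower (Tfeb, Atp6v0d2, Atp6v1a and Atp6v1c1). The same limit was passed by 13.8% of all counted genes upward and 29.7% downward. The intervals of the 2 libraries were separate for 24 members that were higher and 14 that were lower. Of all counted genes 25.1% and 48.5% were separate in those directions. At the depth of these genes the intervals are narrow, so a separate interval can mark a small change: Ctsl, with 1392 (1380 to 1404) and 1333 (1322 to 1345) FPKM, was 1.04-fold lower with separate intervals. The level of the members matters for reading these shares, since 36 of the 46 lay among the 2007 most abundant counted genes, of 5 equal classes by summed FPKM. In that class the size rule called 13.2% of genes higher and 4.19% lower, and the median change was 0.06. The loci of Ctsa, Ctsb, Ctsz, Glb1, Npc1 and Atp6v1b2 overlap another gene, and that of Atp6v0c overlaps its pseudogene Atp6v0c-ps2. Cd63 and Atp6v0c have pseudogenes by name, so fragments assigned to all these members are less certain. The overlapping gene was the lower of the pair except at Npc1, where Rmc1 was at 19.1 and 16.5 FPKM. As a share of all FPKM summed, the 46 genes made up 3.94% before LPS and 3.79% after it.

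**Figure D2:**
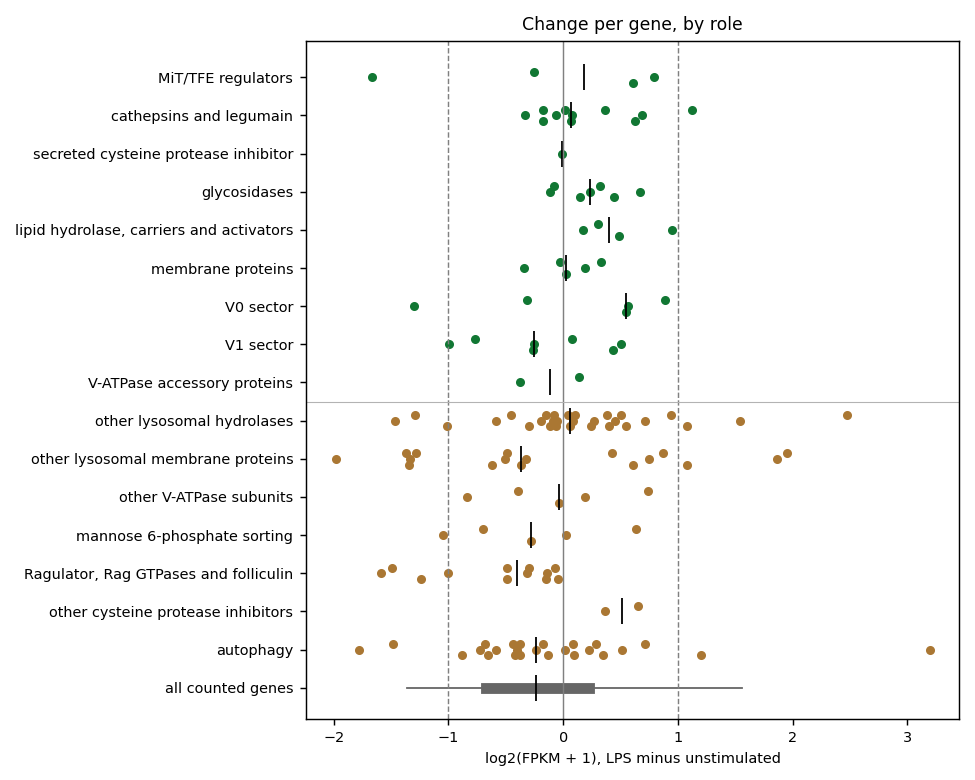
Change of each gene on the log2(FPKM + 1) scale (LPS minus unstimulated) for the members by role (green) and other lysosome-linked lists (brown), where a black tick is the median and dashed lines mark the size rule. In the bottom row a thick bar spans the interquartile range and a thin line the 5th to 95th percentile of all 10035 counted genes, and 43 of the 46 members lie between the dashed lines.

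The 4 MiT/TFE transcription factor genes did not share a direction. Tfeb, which drives lysosomal genes when nutrients are scarce or the organelle is stressed, was at 5.15 FPKM (4.39 to 5.91) in the unstimulated library and 0.943 (0.660 to 1.23) in the LPS library (mm9 chromosome 17, 47873986 to 47929365). This is a 5.46-fold fall (3.90 to 7.65), a change of -1.66, and the intervals did not overlap. Tfeb is a low-level gene, ranked 6354 and 9145 by FPKM, and with a pseudocount of 5 its change was -0.77, short of the size rule. Tfec, a member found mainly in macrophages and osteoclasts, was at 13.4 (12.1 to 14.6) and 23.8 (22.2 to 25.4) FPKM, 1.78-fold higher (1.59 to 2.00) and a change of 0.79. Tfe3, the broadly expressed partner of Tfeb, was at 9.78 (8.84 to 10.7) and 15.5 (14.3 to 16.7), 1.58-fold higher (1.40 to 1.79). Mitf, known from pigment cells and osteoclasts, was at 5.53 (4.92 to 6.14) and 4.46 (3.79 to 5.14), with overlapping intervals. Tfec and Tfe3 were above 0 and Tfeb below 0 under the deposited FPKM and the other 3 scalings, while Mitf changed sign after quantile normalisation (0.02). A single factor per library, as in TPM and median scaling, cancels in a ratio of 2 genes, whereas quantile normalisation does not cancel. On the deposited FPKM Tfec stood at 2.60 times the Tfeb level (2.18 to 3.09) before LPS and at 25.3 times (18.5 to 34.5) after it.

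The promoters of the members were searched for the E-box letters that this family binds, since the members can be compared by whether they hold them. RefSeq promoter sequences (build GRCm38.p6, 250 bases before to 50 after each start) were given for 39 of the 46 genes. The core letters CACGTG, which read the same on both strands, stood in at least 1 promoter of 14 of these 39 genes (35.9%), against 12.6% of 8036 counted genes with a promoter and 7.15% of all 32851 promoters. The longer form TCACGTGA, also the same on both strands and containing the core, stood in 7 members (17.9%), against 2.44% of counted genes and 0.974% of promoters. A longer consensus of 10 letters, these 8 with G before and C after, stood in 0 of the 39, against 0.871% of counted genes. Of the 7 members with TCACGTGA 5 are shown. Mcoln1 and Atp6v0d1 are not shown, although Atp6v0d1 had the largest rise of the 7 (a change of 0.56), so the 5 do not represent all directions equally. Each line gives the strand of the gene, 5′ to 3′, with TCACGTGA in capitals.
Ctsa (chr2:164833730-164833814, plus strand): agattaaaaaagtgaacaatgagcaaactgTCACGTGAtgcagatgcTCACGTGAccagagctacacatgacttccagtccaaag
Ctsd (chr7:142387889-142387956, minus strand): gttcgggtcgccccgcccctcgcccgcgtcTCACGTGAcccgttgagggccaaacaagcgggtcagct
Gla (chrX:134601163-134601255, minus strand): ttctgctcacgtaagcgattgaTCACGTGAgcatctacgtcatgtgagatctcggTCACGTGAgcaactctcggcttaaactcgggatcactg
Atp6v0e (chr17:26676368-26676435, plus strand): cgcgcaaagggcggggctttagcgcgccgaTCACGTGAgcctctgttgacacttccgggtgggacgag
Atp6v1a (chr16:44139354-44139421, minus strand): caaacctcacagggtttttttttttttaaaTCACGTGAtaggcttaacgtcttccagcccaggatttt

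Ctsa and Gla each hold 2 copies, and Ctsd, Atp6v0e and Atp6v1a hold 1. In Ctsd the letters begin 99 bases before the annotated start and in Atp6v1a 132. The 7 genes with these letters did not share a direction: the change was 0.56 for Atp6v0d1, 0.14 for Gla, 0.07 for Ctsa, 0.03 for Mcoln1, 0.02 for Ctsd, -0.32 for Atp6v0e and -0.997 for Atp6v1a. Over the 14 members with CACGTG the median change was 0.11 (-0.997 to 0.69), and over the 25 without it 0.19 (-1.66 to 1.12). Among counted genes with a promoter the medians were -0.26 with and -0.23 without CACGTG. For TCACGTGA the members' medians were 0.03 with and 0.27 without it, beside -0.21 and -0.24 among counted genes with a promoter. A match is a description of the sequence, and binding was not measured at these promoters here.

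Protease genes were among the most abundant members, and 10 of the 11 stayed within the size rule. The member that passed it was Ctsc, the dipeptidyl peptidase that activates granule serine proteases by trimming them. Ctsc was at 44.9 FPKM (43.0 to 46.8) unstimulated and 99.0 (96.3 to 101.8) after LPS (mm9 chromosome 7, 95426603 to 95459385). It was thus 2.21-fold higher (2.10 to 2.32), on separate intervals, and its change was 0.89 after TPM scaling and 0.95 after quantile normalisation, both short of the rule. The next were Ctsf (41.7 and 68.0 FPKM, 1.63-fold), a cysteine cathepsin, and Ctsz, a carboxypeptidase. Ctsz was at 2398 (2379 to 2418) and 3698 (3674 to 3721), 1.54-fold higher, and it went from rank 37 to rank 20 among all genes. In the LPS library it was the highest of the 46 genes. Ctsc, Ctsf and Ctsz were above 0 under all 4 scalings.

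Ctsd, the main aspartic protease of the lysosome, was level at 2773 (2756 to 2790) and 2805 (2788 to 2822) FPKM, with overlapping intervals. The level of Ctss, the cathepsin that trims the invariant chain of MHC class II, stood at 1079.9 (1067 to 1093) and 1139 (1126 to 1152). Ctsb, a cathepsin with both endo- and exopeptidase activity, was at 529 and 679 FPKM, 1.28-fold higher (1.27 to 1.30). The lowest change in the group, -0.33, was that of Ctsk, the collagen-cutting cathepsin of osteoclasts, with 612 (603 to 621) and 486 (478 to 494) FPKM. Lgmn, the asparagine-specific protease that matures several cathepsins, was at 1108 and 979 FPKM, and Ctsh, an aminopeptidase, at 494 and 438. Ctsk was below 0 under all 4 scalings, whereas Ctsb, Ctsd, Ctss, Ctsl, Ctsh, Ctsa and Lgmn changed sign with the scaling. The ratio of Ctsz to Ctsk on the deposited FPKM went from 3.92 (3.85 to 3.99) to 7.61 (7.48 to 7.75).

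Cst3, the secreted cystatin C that blocks cysteine cathepsins, was at 2945 (2914 to 2977) and 2920.5 (2890 to 2951) FPKM. It was the highest member in the unstimulated library, and its ratio between the libraries was 0.992 (0.977 to 1.01). Other inhibitors of cysteine proteases were examined as a list of 9 genes. Of 8 matched, 2 reached 1 FPKM and 0 passed the size rule: cytosolic Cstb (1651 and 2129 FPKM, a change of 0.37) and Cst7, which enters lysosomes (301 and 475, a change of 0.66). The other 6, Csta1, Stfa1, Stfa2, Stfa2l1, Stfa3 and Cst6, were listed at 0 FPKM in both libraries.

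Of the 7 glycosidase genes 0 passed the size rule, and their changes ran from -0.12 to 0.67. Hexa, the alpha chain of beta-hexosaminidase that degrades gangliosides, was the most abundant at 645 (636 to 653) and 806 (797 to 815) FPKM. It was 1.25-fold higher (1.23 to 1.27), but its change was -0.08 after quantile normalisation. Gaa, the glycogen-degrading acid glucosidase, had the largest change, from 19.7 (18.5 to 20.8) to 31.9 FPKM. Its interval in the LPS library spanned 16.8 to 47.1, so the libraries overlapped. The interval widths of its 2 transcripts gave 13 and 5 implied fragments there, against 915 and 197 before LPS. With a higher FPKM after LPS, these small figures do not measure depth, since the intervals also cover the assignment of fragments to transcripts. Man2b1, the alpha-mannosidase, was at 22.2 (21.2 to 23.2) and 30.5 (29.4 to 31.6), 1.37-fold higher (1.29 to 1.45) and above 0 under all 4 scalings. Gusb, the beta-glucuronidase, was lowest in change, at 115 (112 to 118) and 106 (103 to 109). The sialidase Neu1 (35.8 and 33.8) had overlapping intervals, and Gla and Glb1, which remove galactose, had changes of 0.14 and 0.23.

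Of the 4 lipid-handling and activator genes 0 passed the size rule, and all 4 had a higher FPKM after LPS with separate intervals. Npc2, the soluble carrier that hands cholesterol to Npc1, was at 188 (184 to 191) and 363 (358 to 367) FPKM, 1.93-fold higher (1.89 to 1.97). It had the largest positive change after Ctsc among the members on the log2(FPKM + 1) scale and was above 0 under all 4 scalings. Grn, which encodes progranulin, was at 251 (247 to 256) and 352 (347 to 358), 1.40-fold higher. Psap, the precursor of the saposins that present lipids to hydrolases, was at 903 (894 to 912) and 1115 (1105 to 1125). Lipa, the acid lipase that frees cholesterol and fatty acids, was at 135 (132 to 138) and 153 (149 to 157). Grn was above 0 under all 4 scalings, while Psap was at 0 after quantile normalisation and Lipa below 0 after TPM scaling (-0.07) and quantile normalisation (-0.09).

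Among the 5 membrane proteins the changes ran from -0.34 to 0.33. Cd63, a tetraspanin of late endosomes, was the most abundant at 883 (867 to 899) and 1009 (992 to 1026) FPKM. Lamp1, a heavily glycosylated coat protein of the lysosomal membrane, was at 663 (655 to 670) and 833 (824 to 841), 1.26-fold higher (1.24 to 1.28). Its relative Lamp2, which also serves chaperone-mediated autophagy, was at 336 (330 to 343) and 330.0 (323 to 337) with overlapping intervals. Npc1, the membrane protein that exports cholesterol, was at 10.5 (9.85 to 11.1) and 8.06 (7.53 to 8.59), 1.30-fold lower (1.19 to 1.42) and below 0 under all 4 scalings. On the deposited FPKM Npc2 stood at 17.9 times the Npc1 level (16.9 to 19.1) before LPS and at 45.0 times (42.1 to 48.1) after it.

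The calcium channel gene Mcoln1 was level at 19.1 (17.7 to 20.5) and 19.5 (18.1 to 20.9) FPKM. Its 2 relatives outside the set passed the size rule in opposite directions. Mcoln2 rose from 17.2 (16.02 to 18.4) to 65.1 (62.8 to 67.5), 3.78-fold (3.499 to 4.09). Mcoln3 fell from 45.5 (43.1 to 47.8) to 18.1 (16.7 to 19.5), 2.51-fold (2.28 to 2.76). Before LPS Mcoln3 was the highest of the 3 channel genes, and after LPS Mcoln2 was.

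Genes of the V0 sector, the membrane part of the proton pump, ran from a change of -1.30 to one of 0.89. The ring subunit Atp6v0c was at 777 (764 to 789) and 1440.4 FPKM (1424 to 1457), 1.85-fold higher (1.82 to 1.89) with a change of 0.89. The second ring subunit, Atp6v0b, was at 574 (563 to 586) and 840.4 (827 to 854), 1.46-fold higher (1.43 to 1.502). Pseudogenes known by name make Atp6v0c less certain, though their sequences were not compared. The listed Atp6v0c-ps2, whose locus overlaps that of Atp6v0c, was at 6.02 and 1.84 FPKM. Atp6v0e, a small membrane subunit, was 1.25-fold lower, with 662 (648 to 677) and 531 (518 to 543) FPKM and a change of -0.32.

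The subunit that couples the ring to V1 exists in 2 forms, whose values lay on opposite sides of 0. Atp6v0d1, the form found in most tissues, was at 152 (148 to 156) and 225 (219 to 230) FPKM, 1.48-fold higher (1.42 to 1.53). Atp6v0d2, the form known from osteoclasts and macrophages, fell from 80.6 (78.1 to 83.2) to 32.1 (30.6 to 33.7), 2.51-fold (2.37 to 2.66; mm9 chromosome 4, 19803985 to 19849713). Its change of -1.30 passed the size rule under each of the 9 alternatives that kept the rule's limit, the smallest being -1.02 after median scaling. The ratio of d1 to d2 went from 1.89 (1.81 to 1.97) to 6.99 (6.62 to 7.38). All 5 V0 members kept their sign under all 4 scalings.

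**Figure D3:**
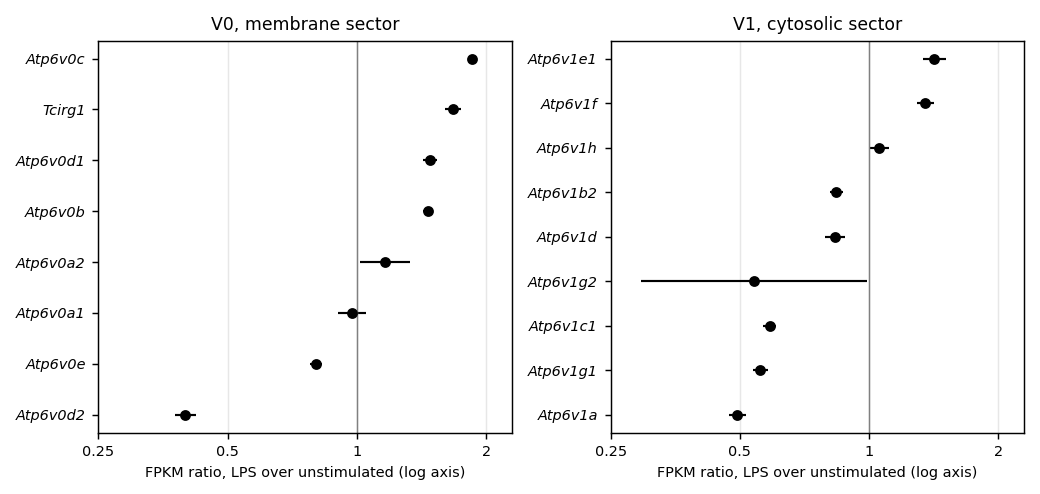
Ratio of FPKM in the LPS library over the unstimulated library (log axis) for each counted V-ATPase subunit gene, in V0 at the left and V1 at the right. Bars are the 95% interval from the intervals of both libraries. Atp6v0c, at 1.85, is the highest point and Atp6v0d2, at 0.399, the lowest, and in V1 the lowest is Atp6v1a at 0.494.

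In the cytosolic V1 sector 0 of 7 members passed the size rule and the median change was -0.25, beside -0.24 for all counted genes. Atp6v1a, the catalytic subunit of the ATP-burning head, was at 68.1 (66.2 to 69.9) and 33.6 (32.4 to 34.8) FPKM, 2.03-fold lower (1.94 to 2.12) on separate intervals. Its change of -0.997 became -1.02 when the pseudocount was 0.1, -1.25 on the TPM scale and -1.13 with quantile normalisation, all past the size rule. Median scaling gave -0.71 and a pseudocount of 5 gave -0.92, both short of it. The partner of Atp6v1a in the head, Atp6v1b2, was at 119 (116 to 122) and 100.2 (97.6 to 103), and its sign turned after median scaling (0.04). Atp6v1c1, whose subunit clamps V1 to V0 and leaves when the pump is taken apart, was at 181 (177 to 185) and 106 (103 to 109), 1.71-fold lower (1.64 to 1.77).

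Atp6v1e1, a subunit of the outer stalk, and Atp6v1f, of the rotor, were higher. They were at 80.1 (76.3 to 83.9) and 114 (109 to 118), and at 367 (354 to 379) and 496 (482 to 511) FPKM. Both were above 0 under all 4 scalings, as Atp6v1a and Atp6v1c1 were below 0. The rotor subunit Atp6v1d (112 and 93.1) and the regulatory subunit Atp6v1h (70.5 and 74.4) changed sign with scaling. Across the sectors the ring gene Atp6v0c stood at 11.4 times the level of Atp6v1a (11.1 to 11.8) before LPS and at 42.9 times (41.2 to 44.6) after it. The accessory protein genes were Atp6ap1, which helps assemble V0, at 146 (142 to 150) and 161 (157 to 164) FPKM, and Atp6ap2, the prorenin receptor, at 26.7 (25.2 to 28.2) and 20.3 (19.1 to 21.6).

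A list of 11 further V-ATPase subunit genes held 5 that reached 1 FPKM, and 0 of them passed the size rule on the deposited FPKM. By that rule 1 was lower after TPM scaling, 1 lower after quantile normalisation and 1 higher after median scaling. Atp6v1g1, of the outer stalk, had the largest change, from 359 (351 to 368) to 201 (194 to 207) FPKM, 1.79-fold lower (1.72 to 1.86). Tcirg1, the large V0 subunit of osteoclasts and macrophages, was at 82.6 (80.0 to 85.2) and 138 (134 to 142), 1.67-fold higher, and was the most abundant of the large V0 subunits, above Atp6v0a1 (17.2 and 16.7) and Atp6v0a2 (6.42 and 7.46). The kidney and testis forms Atp6v0a4, Atp6v1b1, Atp6v1e2 and Atp6v1g3 were listed at 0 in both libraries.

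For 9 members the tables held more than 1 RefSeq transcript, and the transcripts of a gene did not always share a direction. Such a split rests on how fragments shared by overlapping transcripts were assigned, and was not checked at the level of reads here. Lipa held 2 transcripts over the same interval (mm9 chromosome 19, 34566806 to 34601964). Transcript NM_001111100 went from 123 (120.2 to 126) to 96.5 (93.4 to 99.6) FPKM. Transcript NM_021460 went from 11.96 (10.7 to 13.2) to 56.2 (53.8 to 58.6), and its share of the gene's FPKM from 8.85% to 36.8%. The change of Lipa as a whole was 0.17, and it was -0.35 when the most abundant transcript alone was taken.

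Mitf also held transcripts with different directions, and its change was 0.31 when the most abundant transcript alone was taken. The transcript with the most upstream start, NM_001113198 (mm9 chromosome 6, 97757052 to 97971352), went from 2.44 (2.05 to 2.82) to 0.388 (0.00830 to 0.767) FPKM. The transcript that starts at 97879811, NM_001178049, was at 3.10 (2.62 to 3.57) and 4.08 (3.52 to 4.63), with overlapping intervals, and its share of the gene went from 56.0% to 91.3%. The third, NM_008601, had an upper bound of 0.0208 FPKM at most. In Tfeb the transcript NM_011549 (start 47922693) carried 87.2% of the unstimulated level and went from 4.49 (3.81 to 5.18) to 0.943 (0.660 to 1.22), resting on 172 and 45 implied fragments. The transcript NM_001161722, which starts at 47873986, went from 0.660 (0.337 to 0.983) to an upper bound of 0.0407.

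The minor transcript of Ctsa, NM_008906, went from 40.4 (38.4 to 42.4) to 17.3 (16.05 to 18.6) FPKM while the major one, NM_001038492, was at 540 and 592 (intervals 534 to 545 and 586 to 598). The minor transcript of Cd63, NM_001042580, was at 39.4 (35.1 to 43.7) and 73.7 (68.0 to 79.4) beside a major one of 843 and 935. Both Tfe3 transcripts were higher after LPS, NM_001105196 at 7.17 and 10.1 FPKM and NM_172472 at 2.61 and 5.38. The 2 Lamp2 transcripts held 75.6% and 24.4% of the gene before LPS and 77.0% and 23.0% after it. For Psap 2 of 6 transcripts carried the signal, and for Gaa the LPS intervals of both transcripts were too wide to tell a change.

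**Figure D4:**
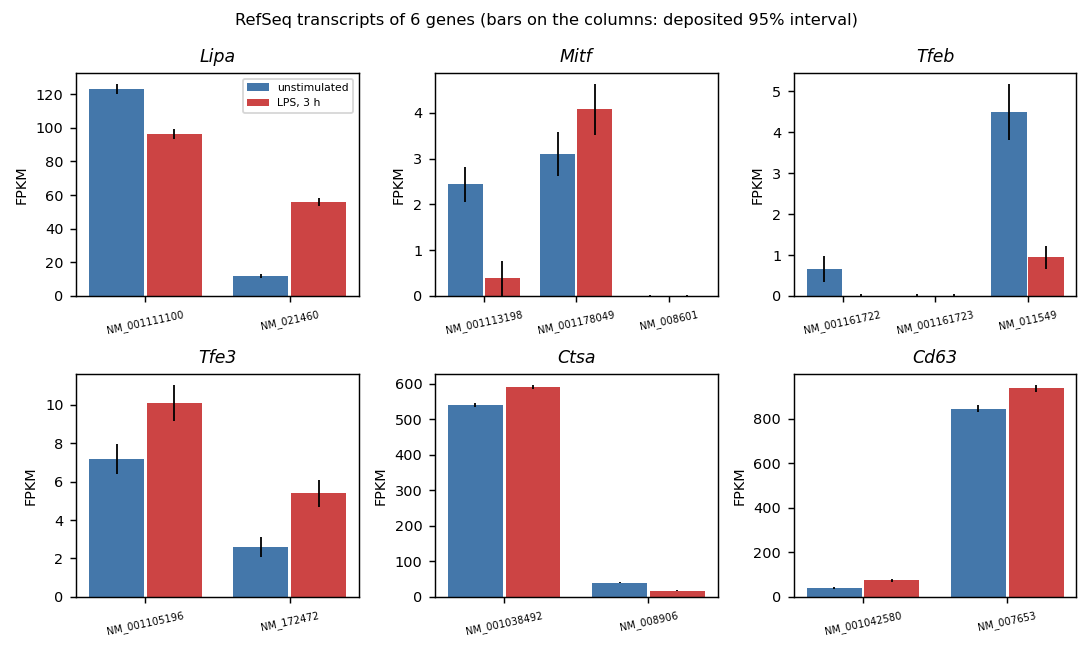
FPKM of each RefSeq transcript of Lipa, Mitf, Tfeb, Tfe3, Ctsa and Cd63 before and after LPS, with the deposited 95% interval as a bar on each column. The second Lipa transcript stands at 11.96 and 56.2 FPKM while the first stands at 123 and 96.5, and the first Mitf transcript drops from 2.44 to 0.388.

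Other lysosomal genes, taken from lists that do not overlap the members, held 23 genes past the size rule among 95 counted, 8 higher and 15 lower, when joined with the autophagy list, where 8.55% and 12.4% of all counted genes were called. Of 29 counted hydrolases of the organelle 3 were higher, 3 were lower and the median change was 0.06. Acp5, the tartrate-resistant acid phosphatase of osteoclasts and activated macrophages, rose from 75.6 (71.7 to 79.9) to 424 (415 to 432) FPKM, 5.60-fold (5.29 to 5.94). Ppt2, a thioesterase, rose from 9.27 to 28.9 and the acid phosphatase Acp2 from 9.68 to 21.5. The phospholipase Pla2g15 fell from 20.2 to 6.70 FPKM, the galactosylceramidase Galc from 14.03 to 5.13 and the heparan sulfatase Sgsh from 1.25 (1.01 to 1.48) to 0.116 (0.0459 to 0.185).

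Of 17 counted membrane proteins of the lysosome outside the set 3 rose and 5 fell by the size rule. Of all counted genes 8.55% were higher and 12.4% lower. The list's median change was -0.36 beside -0.24 for all counted genes. After median scaling the list's median was -0.10 and after quantile normalisation -0.17. Besides Mcoln2, Cln3, mutated in juvenile Batten disease, rose from 16.2 (14.9 to 17.5) to 65.3 (62.8 to 67.9) FPKM, 4.03-fold (3.69 to 4.41). The chloride-proton exchanger gene Clcn7 rose from 10.3 (9.57 to 11.0) to 22.8 (21.8 to 23.8), while Ostm1, its partner subunit, fell from 6.88 (6.21 to 7.55) to 2.10 (1.74 to 2.46). The changes of Clcn7 (0.87) after TPM scaling and, among the hydrolases, of Acp2 (0.87) after it were short of the size rule, as were those of Sgsh after median scaling (-0.98) and quantile normalisation (-0.81). Tpcn1, a sodium and calcium channel, fell from 15.1 (14.3 to 15.8) to 3.06 (2.72 to 3.41), 4.92-fold. Besides Mcoln3, the exporters Ctns for cystine (7.64 to 2.35) and Slc17a5 for sialic acid (6.94 to 2.14) were also lower. With a pseudocount of 5 the changes of Clcn7 (0.87), Ostm1 (-0.74), Ctns (-0.78) and Slc17a5 (-0.74) were short of the rule. So were those of the hydrolase genes Acp2 (0.85), Galc (-0.91) and Sgsh (-0.29). Cd68 was not matched by name and was not analysed here.

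Sorting of hydrolases to the lysosome by mannose 6-phosphate was represented by 5 counted genes, of which 1 fell and 0 rose by the size rule. That rule called 12.4% of all counted genes lower and 8.55% higher. Gnptab, the enzyme that starts the mannose 6-phosphate tag, fell from 22.6 (21.7 to 23.5) to 10.4 (9.81 to 11.0) FPKM, a change of -1.05. Median scaling (-0.78) and a pseudocount of 5 (-0.84) left it short of the rule. M6pr, the smaller of the receptors that read the tag, was within the rule with a change of 0.63, at 119 (116 to 122) and 185 (181 to 189) FPKM.

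Genes of the Ragulator, Rag GTPase and folliculin group tether mTORC1 to the lysosome and control the entry of Tfeb and Tfe3 into the nucleus. The list also held Mtor and Rptor, of mTORC1 itself (changes of -0.04 and -0.49). On the deposited FPKM and on the TPM scale 12 of 12 counted genes were below 0. After quantile normalisation 11 were, and after median scaling 8. The intervals of Lamtor2, Rraga and Mtor overlapped between the libraries. The other 9 genes were lower with separate intervals, as were 48.5% of all counted genes. The list's median change was -0.40 beside -0.24 for all counted genes. Of all counted genes 35.8% were above 0. By the size rule 4 of the 12 fell and 0 rose, where 12.4% of all counted genes were lower. Flcn, encoding folliculin, fell from 21.5 (20.3 to 22.7) to 8.53 (7.78 to 9.28) FPKM, and its 2 binding partners Fnip1 and Fnip2 fell from 7.86 (7.37 to 8.34) to 2.15 (1.91 to 2.40) and from 10.4 (9.86 to 10.9) to 2.80 (2.53 to 3.06). The GTPase gene Rragd fell from 2.65 (2.33 to 2.97) to 0.823 (0.652 to 0.995). Rraga and Rragc, the more abundant GTPase genes, were at 37.0 and 35.1 and at 39.7 and 32.1. With a pseudocount of 5 the changes of Flcn (-0.97), Fnip1 (-0.85), Fnip2 (-0.98) and Rragd (-0.39) were short of the rule, as were those of Flcn (-0.98) and Rragd (-0.86) after median scaling and that of Rragd (-0.66) after quantile normalisation.

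How far the members' directions depend on the scaling of the libraries was examined gene by gene. TPM scaling moved the median change of all counted genes by -0.24, median scaling by 0.24 and quantile normalisation by 0.11. Under the deposited FPKM and these 3 scalings 14 members were above 0 each time, 8 were below 0 each time, and 24 changed sign or reached 0. The 14 were Ctsc, Npc2, Atp6v0c, Tfec, Ctsf, Gaa, Ctsz, Tfe3, Atp6v0d1, Atp6v0b, Atp6v1e1, Grn, Man2b1 and Atp6v1f. The 8 were Tfeb, Atp6v0d2, Atp6v1a, Atp6v1c1, Atp6ap2, Npc1, Ctsk and Atp6v0e. Against the median of all counted genes under the same scaling, 35 of 46 members were above it on the deposited FPKM, 35 after TPM scaling, 37 after median scaling and 25 after quantile normalisation.

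**Figure D5:**
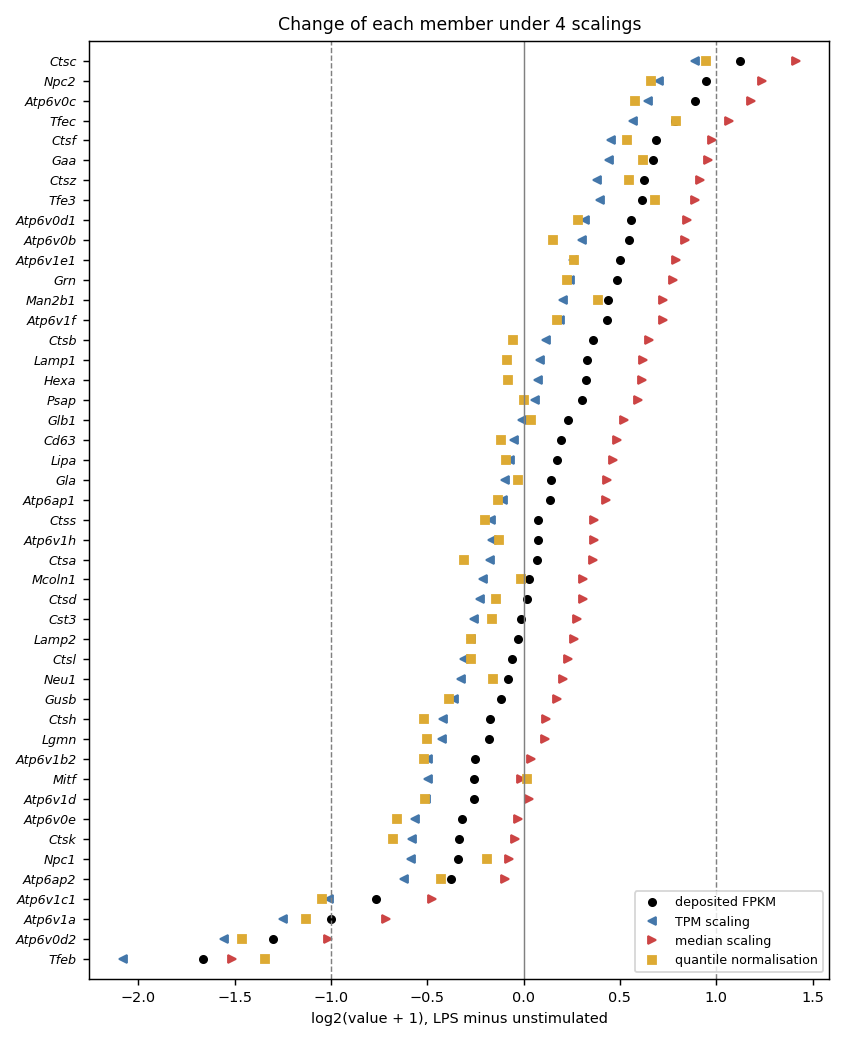
Change of each of the 46 members (log2(value + 1), LPS minus unstimulated) on the deposited FPKM and after TPM scaling, median scaling and quantile normalisation, ordered by the first, with dashed lines at the size rule. Tfeb and Atp6v0d2 lie beyond the lower line under all 4, and Ctsc lies beyond the upper line under 2 of them.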

How the data were processed

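The members and lists were chosen with earlier results of these data known. Trizol-extracted total RNA went into strand-specific libraries, sequenced with 76-base reads, per the labels' protocols. The authors deposited FPKM per RefSeq transcript and locus, with interval bounds and a status, made with Cufflinks on build mm9, per the submitters' processing notes. The sources used here do not give the aligner, the Cufflinks version or whether counting used strand. Symbols came from a RefSeq table (GRCm38.p6, names only) that matched 27560 of 28246 rows (97.6%). Rows not OK in both libraries (391, of which 0 belonged to members) and 704 small RNA rows were left out, and rows of a symbol were summed, with half-widths combined in quadrature. Changes are differences of log2(FPKM + 1), called at 1 in size among genes at 1 FPKM or more in either library. Implied fragments, the square of 2 × FPKM over the interval's half-width, gave a rough depth per transcript, and no ratio was computed at 3 or fewer. Where transcripts overlap this figure can fall below the depth, since the interval also covers the assignment of fragments. With 1 library per group no test was possible. Named in full were members past the rule and, by role, the most abundant member and the largest changes, and of each other list the genes past the rule or else the largest change. The remaining members are given more briefly. Genes outside the set that this rule does not cover (Atp6v0a1, Atp6v0a2, Tcirg1, M6pr, Cstb, Rraga, Rragc, Mtor, Rptor, Gabarap and the Lamtor genes) were chosen after their values were seen. The 1.5-fold limit was added after the data were seen. The change and call were run on simulated data with counting noise only, which cannot show the spread between cultures, the assignment to transcripts or the effect of scaling. Tools were Python 3.11.15, pandas 2.3.3, numpy 2.4.6, scipy 1.17.1 and matplotlib 3.10.9. Coordinates are mm9 loci as deposited, written 1-based, except promoters.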

Additional observations from a re-analysis of the deposited data

How the results depend on the processing

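No paired analysis was possible because each group held 1 library. The number of members called higher, 1 on the deposited FPKM, was 0 after TPM scaling, 4 after median scaling (Atp6v0c, Ctsc, Npc2 and Tfec), 0 after quantile normalisation and 8 with a limit of 1.5-fold. The number called lower, 2, was 1 with a pseudocount of 5 (Atp6v0d2), 4 after TPM scaling and 4 after quantile normalisation (both times Tfeb, Atp6v0d2, Atp6v1a and Atp6v1c1), 3 with a pseudocount of 0.1 and 4 with the 1.5-fold limit. The members' median change was -0.14 after TPM scaling, 0.40 after median scaling and -0.10 after quantile normalisation. TPM and median scaling apply 1 factor per library, whereas quantile normalisation moves genes by different amounts, and the cause of the differences between settings was not tested. Filters at 5 FPKM or none and keeping rows of every status changed 0 of the 46 member changes. Taking the most abundant transcript alone moved 5 by 0.1 or more: Gaa (to 0.35), Lipa (to -0.35), Mitf (to 0.31), Tfe3 (to 0.44) and Tfeb (to -1.50, still past the rule). Among all counted genes the lower calls numbered 1248, and 2280 after TPM scaling, 782 after median scaling, 841 after quantile normalisation, 2061 with a pseudocount of 0.1 and 354 with 5. Higher calls were 59.4% of all calls after median scaling, 53.0% after quantile normalisation and 24.8% after TPM scaling, against 40.7%. Of the 23 genes outside the set past the size rule, 15 were short of it with a pseudocount of 5, 2 after TPM scaling (Acp2 and Clcn7), 4 after median scaling (Flcn, Gnptab, Rragd and Sgsh) and 2 after quantile normalisation (Rragd and Sgsh). Precision is limited by the single library per group and, for Tfeb, by few implied fragments. For Gaa and 1 Mitf transcript it is limited by wide intervals in the LPS library.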

Other observations

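Autophagy genes, which deliver cargo to the lysosome, numbered 25 counted in a list of 26. Of these 2 rose and 2 fell by the size rule, where 8.55% of all counted genes were higher and 12.4% lower. The list's median change was -0.23 beside -0.24 for all counted genes. The receptor gene Sqstm1 rose 9.24-fold (8.92 to 9.58) and the receptor gene Optn rose from 0.330 FPKM (0.165 to 0.495) to 2.06 (1.66 to 2.46). Another receptor gene, Nbr1, fell from 7.82 (7.24 to 8.395) to 1.57 (1.32 to 1.83), and Uvrag, a subunit of the lipid kinase complex of late autophagy, fell from 7.05 (6.42 to 7.68) to 1.88 (1.56 to 2.19). Optn, Nbr1 and Uvrag were short of the size rule with a pseudocount of 5 (0.41, -0.96 and -0.81). Gabarap, which coats the autophagosome, was at 444 and 566 FPKM.

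Lamtor4, a subunit of the pentameric Ragulator, was listed at 0.0676 and 0 FPKM, while its partners Lamtor1, Lamtor2, Lamtor3 and Lamtor5 lay between 70.7 and 162 FPKM in the 2 libraries. Whether the single Lamtor4 row covers the transcript made in BV2 cells was not checked, so absence of the gene's RNA is not shown. Across the 46 members, Spearman rho between the change and the genomic span was -0.31, and it was -0.12 across 10035 counted genes, which describes these 2 libraries, since all points share them.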
